A study of Homo sapiens with 18 samples.

Results

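The 33 genes of the human Mediator complex were followed in the RNA of HAP1, a nearly haploid human line of chronic myeloid leukaemia origin, in which the cohesin release factor WAPL, the cohesin loader subunit SCC4 (gene symbol MAU2) or both had been disrupted. The genes were taken from a list of Mediator subunits and kinase module genes, matched by symbol to the Ensembl identifiers of the count files. All 33 were found among the 20329 genes counted, and all 33 passed the filter on low counts in each of the 9 comparisons made. There were 6 groups of 3 samples each. The control cells carried no edit and came in 2 sets, labelled A and B. Set A also held ΔWAPL clone 3.3, ΔSCC4 cells and ΔWAPL/ΔSCC4 cells, and set B held ΔWAPL clone 1.14. A Blasticidin cassette had been inserted at a CRISPR cut in WAPL and a Puromycin cassette at one in SCC4. The ΔWAPL/ΔSCC4 cells were made by disrupting SCC4 in ΔWAPL cells, and are labelled as derived from clone 3.3, so those groups shared the WAPL allele. Each ΔWAPL group was a single clone, and the labels name no further clone for the other edited groups. The effect of an edit and of its clone could therefore not be told apart. The labels give a set only for the controls, and each edited group was placed in a set by the sequencing run number its files carry. Nothing in the labels says whether the 3 samples of a group were separate cultures, so that p-values measure the spread between these samples, which may be technical.

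Mediator is a large assembly that sits between transcription factors bound at enhancers and RNA polymerase II at promoters. Its head and middle modules contact the polymerase, its tail module receives activators, and MED14 runs through the complex as its scaffold. A separable kinase module, built from MED12, MED13, cyclin C and CDK8 or their paralogues, binds the core reversibly and limits its contact with the polymerase. Mediator has been found with cohesin and the cohesin loader at active enhancers and promoters. The comparisons below address whether the RNA of Mediator subunits changed when WAPL, SCC4 or both were disrupted.

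Each sample held between 10007646 and 20711127 counts on genes, with a median of 16177867.5. The smallest count of any Mediator gene in any sample was 78, for MED12L. The edited genes followed the labels. MAU2 stood at 0.509 to 0.975 CPM (counts scaled to library size with TMM factors) in ΔSCC4 cells and at 0.848 to 1.04 CPM in ΔWAPL/ΔSCC4 cells, against 52.1 to 72.7 CPM in the other 12 samples. WAPL RNA was lowered but still present, at 38.0 to 50.2 CPM in the 9 samples with a WAPL edit and 68.0 to 131 CPM in the others. Of 9 haematopoietic marker genes none reached a median of 1 CPM, and their summed level was at most 0.611 CPM in every sample, with SPI1, HBG1 and MPO at 0, so that markers of the blood lineage the line derives from were near 0. The summed level of 4 epithelial markers was 107 to 131 CPM in ΔWAPL/ΔSCC4 cells and 41.6 to 81.9 CPM elsewhere. That of the 4 matched neuronal markers was 1.23 to 5.88 CPM in clone 3.3, ΔSCC4 and ΔWAPL/ΔSCC4 cells and 10.8 to 18.4 CPM in the others. That of 6 fibroblast markers was 28.1 to 32.2 CPM in ΔWAPL/ΔSCC4 cells and 11.3 to 22.2 CPM elsewhere. Single genes made up these sums. KRT8 (1.80 to 51.6 CPM over the samples) and KRT18 (39.3 to 80.9 CPM) carried the epithelial sum, SYT1 (0.679 to 17.6 CPM) the neuronal one and COL1A1 (10.996 to 31.98 CPM) the fibroblast one, while no other gene of these 3 lists was above 1.76 CPM in any sample. Their part in the results was not tested. Here as in any bulk RNA, fewer cells of a kind and less RNA per cell cannot be told apart.

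All Mediator modules were expressed. Levels between genes were compared as RPKM, the CPM per kilobase of the Ensembl canonical transcript. The median over the 33 genes was 14.7 RPKM, against 10.6 RPKM over the 11881 genes with a median of at least 1 CPM, and 26 of the 33 lay above that second value. CCNC, which encodes cyclin C of the kinase module, had the highest median of all members at 48.5 RPKM and ranged from 33.3 to 61.2 RPKM over the 18 samples. MED24 of the tail followed at 42.5 RPKM, the scaffold MED14 at 34.4 RPKM and MED27 of the tail at 32.5 RPKM. The sample ranges of these neighbours in rank overlapped. MED24 ranged from 36.4 to 54.5 RPKM and MED14 from 20.9 to 42.6 RPKM.

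The head genes spanned 10.3 (MED17) to 23.2 RPKM (MED8) in their medians, the narrowest range of the modules with more than 1 gene. MED22, MED20, MED11, MED6 and MED18 lay between them, at 22.6, 21.8, 17.3, 15.4 and 13.7 RPKM. In the middle module MED10 and MED4 were highest, at 28.7 and 27.1 RPKM. MED1, which carries the motifs that nuclear receptors bind, stood at 18.1 RPKM. MED21, MED9, MED19, MED31 and MED7 followed at 15, 11.9, 10.8, 7.39 and 6.47 RPKM. MED26, the subunit through which elongation factors are recruited, had the lowest level of the middle module at 3.59 RPKM. In the tail the levels ran from MED24 and MED27 over MED25 (19.02 RPKM), MED15 (18.3 RPKM), MED16 (14.7 RPKM), MED30 (14.7 RPKM), MED29 (14.1 RPKM) and MED28 (12.7 RPKM) down to MED23 (6.04 RPKM). MED25, MED15 and MED23 are each known as contacts of particular activators. The kinase module held both the highest and the lowest member, since MED12L had a median of only 1.42 RPKM, 34.2 times lower than CCNC. Because the canonical transcript stood for the whole gene, levels between genes are approximate. MED7 and MED26 overlap other genes on the same strand, and 9 members overlap a gene on the opposite strand of the strand-specific libraries.

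**Figure D1:**
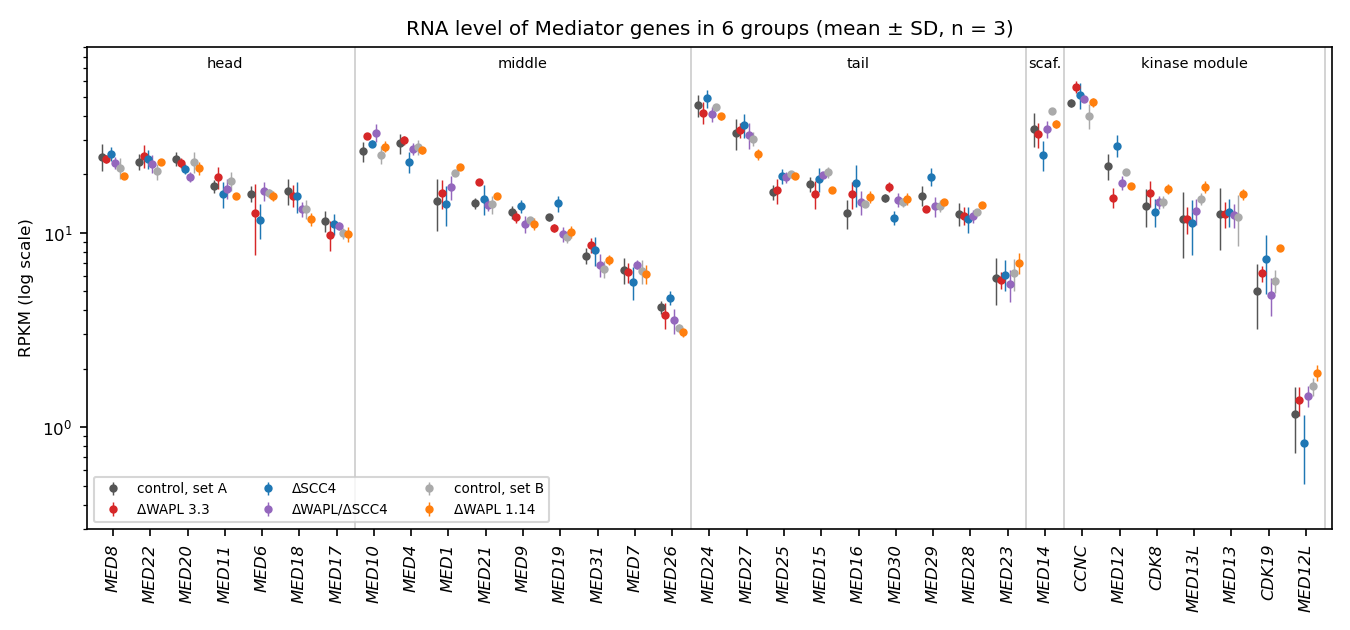
Mean RPKM on a log scale of the 33 Mediator genes, ordered by module and by median level, with the SD over 3 samples as bars and 1 colour for each of the 6 groups. The groups lie close together for most genes, from CCNC at a median of 48.5 RPKM down to MED12L at 1.42 RPKM.

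The spread within groups has to be seen before any comparison. Over all 18 samples the coefficient of variation of a Mediator gene ran from 9.79% (MED20) to 29.9% (MED12L), with a median of 13.9%, against 16.1% over the expressed genes. Samples of one group also differed. Between samples 1 and 3 of the set A controls, CDK19 differed by 1.10 on the log2 scale and MED13 by 0.94, both higher in sample 3, while the median size of the difference over the 33 genes was 0.32. These differences followed the base composition of the transcripts. Spearman's rho between the difference of samples 1 and 3 and the GC content was -0.67 over the 33 Mediator genes and -0.70 over the 11881 expressed genes in the set A controls. It was -0.62 and -0.66 in ΔSCC4 cells, and 0.68 and 0.71, of the opposite sign, in clone 3.3. In clone 1.14 it was -0.14 and -0.04, and the median size of the difference there was 0.06. These coefficients run across genes of the same 2 libraries and are given as a description. The 3 members with the highest coefficients of variation were MED12L (43.6% GC), CDK19 (42.96% GC) and MED13L (47.6% GC). A fit with an offset for GC content was therefore added after seeing the data, and its values stand beside the counts of members it changed.

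**Figure D2:**
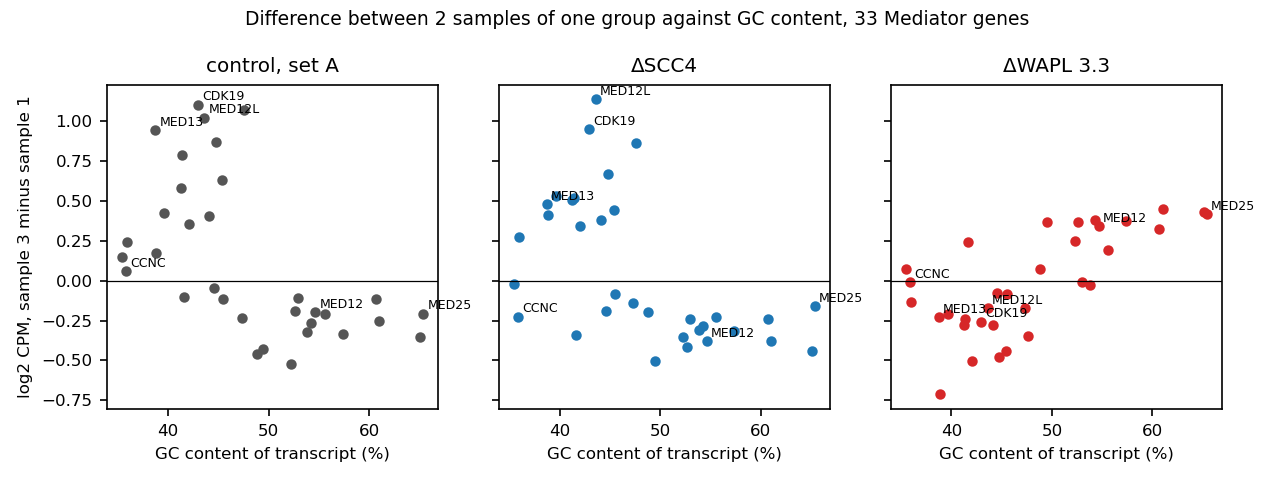
Log2 CPM of sample 3 minus sample 1 of the same group (vertical) against the GC content of the canonical transcript in percent (horizontal) for the 33 Mediator genes, in set A controls, ΔSCC4 and ΔWAPL clone 3.3. GC-poor genes lie highest in the first 2 panels (rho -0.67 and -0.62) and lowest in the third (rho 0.68).

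The RNA of most Mediator genes did not pass the test after loss of WAPL, of SCC4 or of both. No member changed by as much as 2-fold in any comparison between groups. In ΔWAPL clone 3.3 against the set A controls none of the 33 genes passed an adjusted p of 0.05 in edgeR's quasi-likelihood test, where 8.07% of all genes tested did. Here 2 members had an unadjusted p under 0.05, and DESeq2 called 1. In clone 1.14 against the set B controls 4 of the 33 passed (12.1%), below the 20.1% of all genes tested. CDK19 rose and MED15, MED12 and MED14 fell. With both clones in one fit and the set as covariate 3 passed (9.09%), against 17.7% of all genes tested, with MED21 and CCNC higher and MED12 lower in ΔWAPL cells. In ΔSCC4 cells 0 passed without the replicate number in the model, against 9.49% of all genes, with 6 members at an unadjusted p under 0.05 and 0 called by DESeq2. In ΔWAPL/ΔSCC4 cells against the set A controls 0 passed, against 7.95% of all genes, with 3 members at an unadjusted p under 0.05 and 0 called by DESeq2. The median log2 fold changes over the 33 genes were -0.02 in clone 3.3, 0.06 in clone 1.14, 0.04 in ΔSCC4 and -0.04 in ΔWAPL/ΔSCC4 cells, and over all genes tested they lay between -0.01 and 0.01. With the GC offset 2 members passed in clone 3.3 (12.9% of all genes tested), 7 in clone 1.14 (28.7%), 9 over both clones (24.8%) and 3 in ΔSCC4 cells (20.7%).

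Counting members whose 3 edited samples all lay outside the range of the 3 controls gave shares near or below the background. In clone 3.3 there were 7 (21.2%, against 23.3% of all genes tested), and in clone 1.14 there were 13 (39.4%, against 42.5%). In ΔSCC4 cells there were 3 (9.09%, against 26.7%) and in ΔWAPL/ΔSCC4 cells 2 (6.06%, against 22.6%). Only MED12 did so in the same direction in both ΔWAPL clones, each against the controls of its own set (3.03%, against 13.2%).

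**Figure D3:**
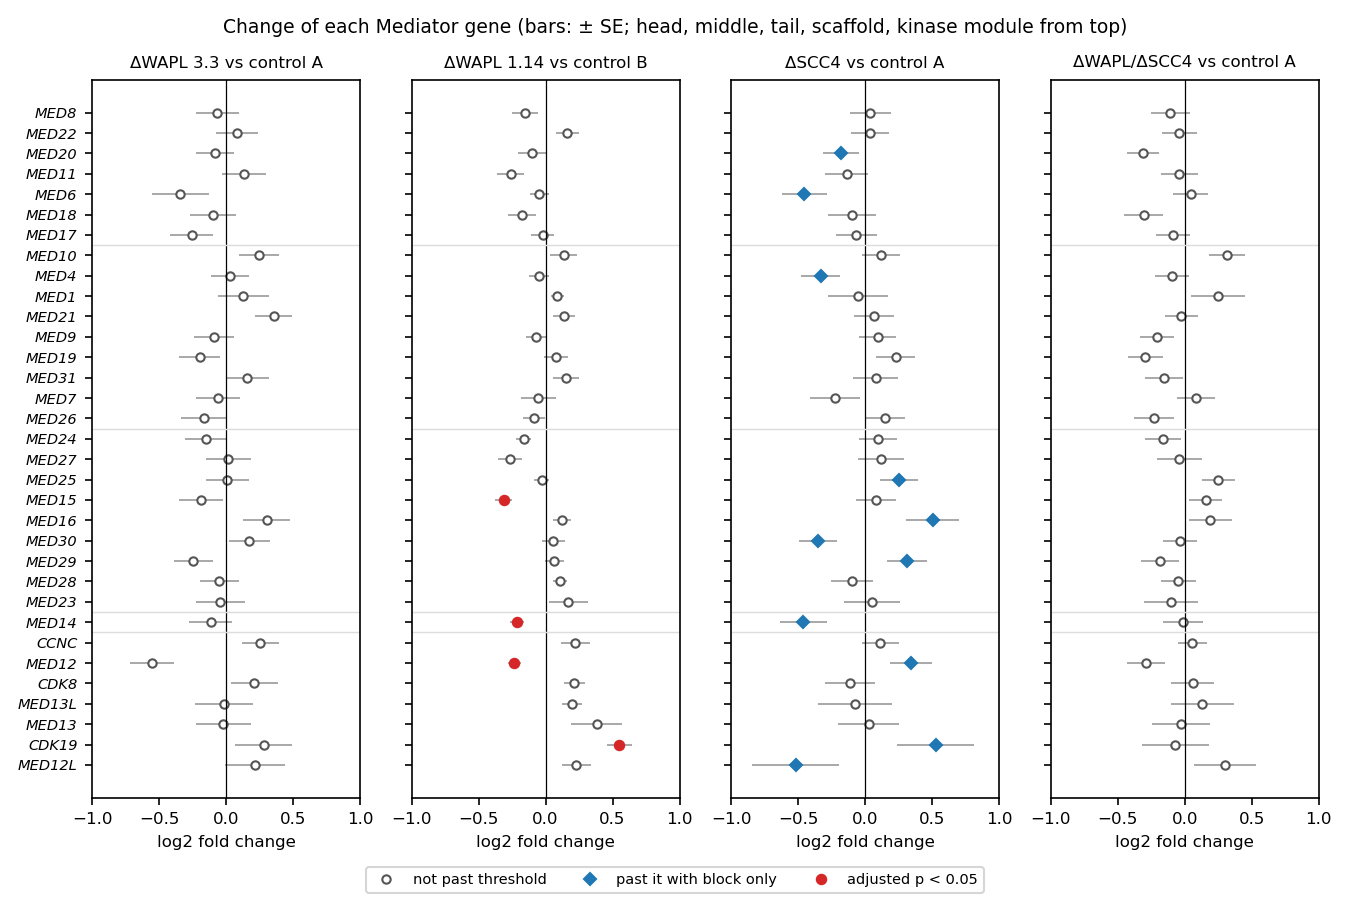
Log2 fold change (horizontal) with its SE as bars for the 33 Mediator genes in 4 comparisons, with the modules from top to bottom. Filled red circles passed an adjusted p of 0.05, filled blue diamonds passed it in ΔSCC4 cells only with a block for replicate number (11 genes), and open circles did not pass.

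The kinase module held 2 of the 4 members that passed in clone 1.14 and 2 of the 3 that passed over both clones. That was 2 of its 7 genes in each case, where 20.1% and 17.7% of all genes tested passed. The call of CCNC over both clones held in 7 of 20 alternatives, and its value was -0.02 with the GC offset. The 7 genes of the module had a median log2 fold change of 0.21 in clone 3.3 and 0.22 in clone 1.14, with 4 of 7 and 6 of 7 on the higher side. The median of the 7 head genes was -0.08 and -0.10, that of the 9 middle genes 0.03 and 0.08, and that of the 9 tail genes -0.04 and 0.06. Over the 33 members the log2 fold changes fell with GC content, with rho -0.28 in clone 3.3 and -0.42 in clone 1.14. Over 12307 and 12450 genes rho was -0.21 and -0.33. MED12, which fell, had the highest GC content of the kinase module (54.7%), and its other genes ran from 35.9% (CCNC) to 47.6% (MED13L). The differences between modules, and the part of GC content in them, were not tested.

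MED12, which links cyclin C and its kinase to the rest of the module and activates the kinase, was the member with the most stable fall. Its gene lies at chrX:70338393-70363953, plus strand (GRCh37), with 45 exons in the canonical transcript. It measured 175, 128 and 152 CPM in the set A controls and 90.9, 108 and 115 CPM in clone 3.3. In set B it measured 139.6, 145 and 140.1 CPM in the controls and 121, 117 and 124 CPM in clone 1.14. Every ΔWAPL sample was below every control of its set. Both clones together gave a log2 fold change of -0.38 ± 0.09 (SE, adjusted p = 0.0081), which is 0.768 times the control level. The change was -0.23 ± 0.05 (SE, adjusted p = 0.019) in clone 1.14, and -0.55 ± 0.16 (SE, adjusted p = 0.051) in clone 3.3, just short of the threshold. With the GC offset clone 1.14 gave -0.15 and did not pass, while clone 3.3 gave -0.45 and passed (adjusted p = 0.022). With both the offset and the block clone 1.14 gave -0.15 and passed (adjusted p = 0.024). The call over both clones held in 20 of 20 alternative analyses. In ΔSCC4 cells MED12 measured 218, 197 and 168 CPM, of which 2 samples were above every control, and in ΔWAPL/ΔSCC4 cells 124, 115 and 135 CPM, of which sample 3 lay within the control range.

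CDK19 and CDK8 are paralogous kinases, of which 1 at a time occupies the module. CDK19 (chr6:110931181-111137161, minus strand) measured 36.99, 31.1 and 40.5 CPM in the set B controls and 54.4, 52.7 and 52.4 CPM in clone 1.14, where every sample was higher than every control. The log2 fold change was 0.55 ± 0.09 (SE, adjusted p = 0.0066). The call held in 13 of 14 alternatives, and was lost in one fit over all 18 samples. In set A the values of the groups overlapped, at 20.1, 32.7 and 43.8 CPM in the controls and 42.6, 40.3 and 35.6 CPM in clone 3.3, with a log2 fold change of 0.28 ± 0.21 (SE, adjusted p = 0.59). Over both clones it was 0.42 ± 0.14 (SE, adjusted p = 0.056), and with the GC offset 0.38 (adjusted p = 0.011). CDK8 (chr13:26828241-26995119, plus strand) measured 44.9, 40.5 and 46.9 CPM in the set B controls and 48.1, 52.5 and 53.6 CPM in clone 1.14, with a log2 fold change of 0.22 ± 0.08 (SE, adjusted p = 0.086). It measured 31.7, 44.95 and 49.3 CPM in the set A controls, 56.6, 49.4 and 41.5 CPM in clone 3.3, 31.6, 42.9 and 43.2 CPM in ΔSCC4 and 43.5, 47.3 and 40.6 CPM in ΔWAPL/ΔSCC4 cells, and these groups overlapped. In set B all 3 edited samples were above the controls. With the GC offset CDK8 passed in clone 1.14 (0.22, adjusted p = 0.045) and over both clones (0.23, adjusted p = 0.024).

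The ratio of CDK19 to CDK8, both as RPKM, sets the paralogues against each other within a sample. It was 0.392 ± 0.0229 (SD, n = 3) in the set B controls and 0.497 ± 0.0395 in clone 1.14, and the groups did not overlap. In set A it was 0.359 ± 0.0611 in the controls, 0.387 ± 0.0253 in clone 3.3, 0.564 ± 0.122 in ΔSCC4 and 0.333 ± 0.0503 in ΔWAPL/ΔSCC4 cells. The 3 ΔSCC4 samples, at 0.495, 0.491 and 0.705, lay above the 3 controls, at 0.305, 0.348 and 0.425. No test was run on these ratios, since 3 samples against 3 cannot give an exact permutation p under 0.10.

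The 250 bases before the start site of MED12, CDK19 and CDK8 are shown because MED12 and CDK19 had the clearest changes and CDK8 is the paralogue of CDK19. The sequences are those of RefSeq on GRCh38.p14, with a GC box (GGGCGG, on either strand) and a CCAAT box (CCAAT, on either strand) in capitals.
MED12, chrX:71118346-71118595, plus strand: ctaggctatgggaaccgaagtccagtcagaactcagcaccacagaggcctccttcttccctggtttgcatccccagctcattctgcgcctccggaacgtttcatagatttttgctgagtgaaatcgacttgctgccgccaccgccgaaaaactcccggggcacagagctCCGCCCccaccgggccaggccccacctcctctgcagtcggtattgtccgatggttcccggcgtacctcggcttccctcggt
CDK19, chr6:110815856-110816105, minus strand: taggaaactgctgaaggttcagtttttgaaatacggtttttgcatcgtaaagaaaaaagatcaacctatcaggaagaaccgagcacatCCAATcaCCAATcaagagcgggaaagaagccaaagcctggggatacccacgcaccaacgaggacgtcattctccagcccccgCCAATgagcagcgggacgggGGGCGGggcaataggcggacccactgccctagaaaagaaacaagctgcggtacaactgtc
CDK8, chr13:26253879-26254128, plus strand: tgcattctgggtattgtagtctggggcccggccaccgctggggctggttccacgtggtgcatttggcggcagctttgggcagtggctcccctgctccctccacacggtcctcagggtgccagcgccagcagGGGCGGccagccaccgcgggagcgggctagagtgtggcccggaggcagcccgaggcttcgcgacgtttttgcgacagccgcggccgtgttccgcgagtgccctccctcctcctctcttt
The window of MED12 held 1 GC box and that of CDK8 held 1, while that of CDK19 held 1 GC box and 3 CCAAT boxes. Promoter entries were found for 25 of the 33 members, of which 15 (60%) held a GC box and 10 (40%) a CCAAT box. Over the 35116 promoters of all genes 42.6% and 32.0% did. That background exceeds the 20329 genes counted and was not limited to expressed genes, while each member was taken once. Its median number of CG pairs (C followed by G) was 11, against 17 in the members. The TATA box letters TATAAA were present in 2 of the 25 (8%), against 10.7% of all. The letters CCGGAAG, from the core of the ETS factor motif, were present in 5 (20%), against 8.52% of all, and AANATGGC, from the core of the YY1 motif, in 3 (12%), against 3.86%. The letters AGGGGGC, from the core of the CTCF motif, were present in 3 of the 25 (12%), against 13.3% of all. These counts describe letters in a window and no site of binding.

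Cyclin C, the activating partner of CDK8 and CDK19, passed the test over both clones only. CCNC (chr6:99990263-100016701, minus strand) measured 95.9, 105 and 99.9 CPM in the set A controls and 116, 132 and 116 CPM in clone 3.3, where all samples were higher than all controls. In set B it measured 90.4, 71.6 and 96.3 CPM in the controls and 105, 95.2 and 102 CPM in clone 1.14, and the highest control exceeded the lowest edited sample. Both clones together gave a log2 fold change of 0.25 ± 0.08 (SE, adjusted p = 0.04). The call held in 7 of 20 alternatives, and with an offset for GC content the value was -0.02. CCNC is among the GC-poorest members, at 35.9% GC.

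MED13 and MED13L encode the subunits that tether the kinase module to the core. MED13 measured 94.8, 115 and 182 CPM in the set A controls, 129.7, 149.7 and 111 CPM in clone 3.3, 112, 134 and 157 CPM in ΔSCC4 and 122, 149.5 and 114 CPM in ΔWAPL/ΔSCC4 cells. It measured 127, 89.7 and 163 CPM in the set B controls and 174, 152 and 169 CPM in clone 1.14. The controls of both sets together spanned the values of all edited groups, while samples 1 and 3 of clone 1.14 exceeded every set B control. The largest log2 fold change, in clone 1.14, was 0.38 ± 0.19 (SE, adjusted p = 0.2). MED13L measured 77.2, 109 and 163 CPM in the set A controls, 122, 131 and 95.6 CPM in clone 3.3, 82.1, 101 and 149.8 CPM in ΔSCC4 and 122, 149 and 111 CPM in ΔWAPL/ΔSCC4 cells. In clone 1.14 all 3 samples (179, 157 and 176 CPM) were higher than the set B controls (152, 136 and 156 CPM), and the log2 fold change was 0.20 ± 0.07 (SE, adjusted p = 0.1). The ratio of MED13L to MED13 in RPKM lay between 0.862 in ΔSCC4 cells and 1.30 in the set B controls, so that the paralogues were expressed at near equal levels.

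MED12L, the paralogue of MED12, was a minor species, with mean ratios to MED12 in RPKM between 0.0309 in ΔSCC4 cells and 0.109 in clone 1.14. It measured 8.47, 11.8 and 17.7 CPM in the set A controls, 14.3, 17.7 and 12.6 CPM in clone 3.3, 5.07, 10.1 and 11.8 CPM in ΔSCC4 and 15.2, 17.7 and 13.97 CPM in ΔWAPL/ΔSCC4 cells. It measured 17.9, 15.5 and 19.2 CPM in the set B controls and 20.8, 18.6 and 22.4 CPM in clone 1.14. In set B the ratio to MED12 was 0.0823, 0.0685 and 0.0879 in the controls and 0.110, 0.102 and 0.116 in clone 1.14, without overlap. In set A the highest control (0.0747) exceeded the lowest sample of clone 3.3 (0.0703). MED12L has 43.6% GC and MED12 54.7%. Over the 33 members the log2 fold changes in clone 1.14 fell with GC content (rho -0.42). The part of GC content in this ratio was not tested. MED12L overlaps 6 genes on the opposite strand.

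**Figure D4:**
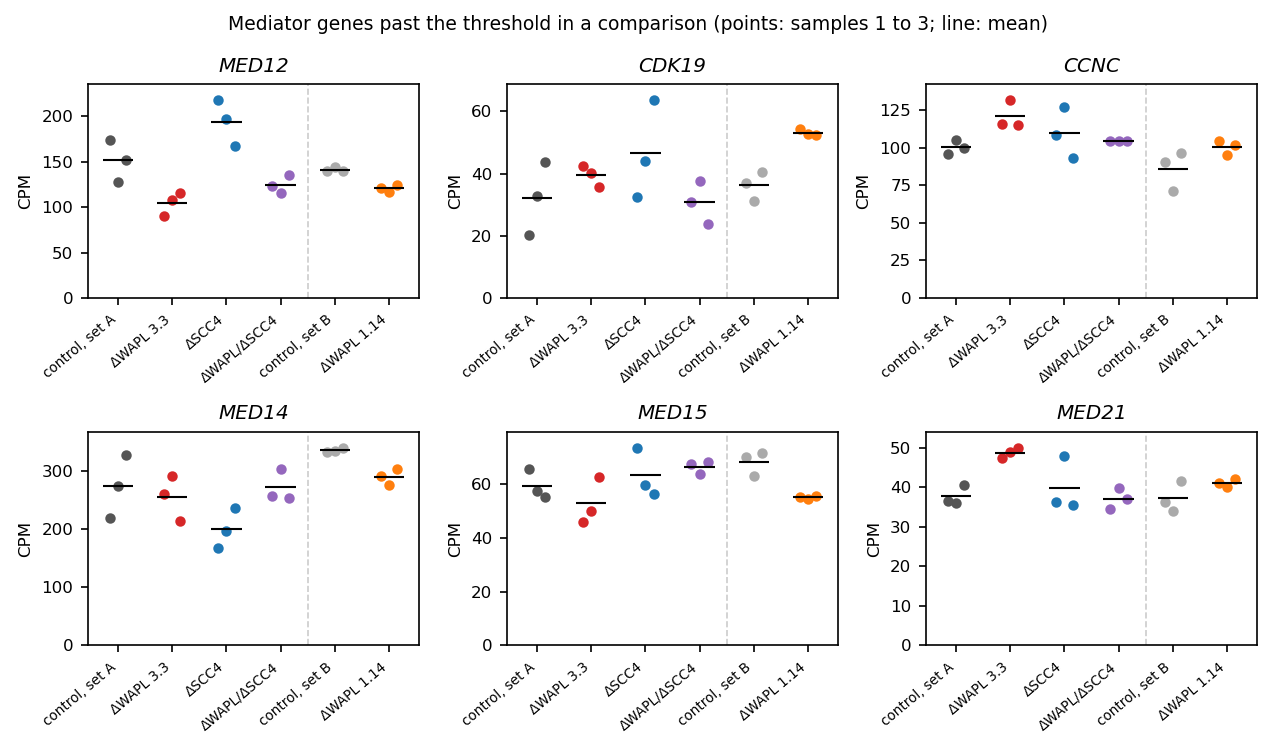
CPM of each sample (points, samples 1 to 3 from left to right) and group mean (line) for the 6 Mediator genes that passed an adjusted p of 0.05 in a comparison without the replicate block or the GC offset, with set A left and set B right of the dashed line. MED12 was lower in all ΔWAPL samples than in the controls of their set, and CDK19 was higher in all clone 1.14 samples than in the set B controls.

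Outside the kinase module the scaffold and 1 gene each of the tail and the middle module passed in the main fits of ΔWAPL cells. These fits had neither GC offset nor block. MED14 (chrX:40507557-40595110, minus strand) measured 332, 334 and 341 CPM in the set B controls and 291, 276 and 303 CPM in clone 1.14, where all samples were lower. The log2 fold change was -0.22 ± 0.05 (SE, adjusted p = 0.025). In set A it measured 219, 274 and 328 CPM in the controls and 261, 292 and 215 CPM in clone 3.3, which overlapped, with a log2 fold change of -0.11 ± 0.16 (SE, adjusted p = 0.82). MED15, a tail subunit that binds activators including the sterol-responsive SREBP factors, lies at chr22:20850200-20941919, plus strand. It measured 70.2, 63.1 and 71.8 CPM in the set B controls and 55.3, 54.7 and 55.7 CPM in clone 1.14, again without overlap, with a log2 fold change of -0.31 ± 0.06 (SE, adjusted p = 0.013). In set A it measured 65.6, 57.7 and 55.1 CPM in the controls and 45.8, 50.2 and 62.9 CPM in clone 3.3, which overlapped, with a log2 fold change of -0.19 ± 0.16 (SE, adjusted p = 0.66). With the GC offset MED14 (-0.26, adjusted p = 0.0046) and MED15 (-0.23, adjusted p = 0.0046) passed over both clones. The calls of MED12, MED14 and MED15 in clone 1.14 were lost when single samples were left out. Leaving out control 1 of set B, or sample 1 or 2 of clone 1.14, left 1 member past the threshold, leaving out sample 3 of clone 1.14 left 2, and leaving out control 3 gave 12. The share of all genes tested that passed moved with them, to 12%, 11.1%, 13.4%, 11.5% and 37.9% in that order. CDK19 passed in each of these.

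MED21, a small subunit of the middle module that pairs with MED7, is encoded at chr12:27175479-27219276, plus strand. It measured 36.6, 36.1 and 40.5 CPM in the set A controls and 47.5, 48.9 and 50.1 CPM in clone 3.3, where all samples were higher. In set B it measured 36.2, 34.2 and 41.7 CPM in the controls and 41.2, 40.2 and 42.2 CPM in clone 1.14, and the highest control lay within the range of the edited samples. Both clones together gave a log2 fold change of 0.25 ± 0.07 (SE, adjusted p = 0.026), clone 3.3 gave 0.35 ± 0.14 (SE, adjusted p = 0.17) and in clone 1.14 0.14 ± 0.08 (SE, adjusted p = 0.27). The call over both clones held in 11 of 20 alternatives, and an offset for GC content gave -0.02. MED21 had the lowest GC content of all members, at 35.4%. Without control 1 or 2 of either set, sample 2 of clone 3.3 or sample 3 of clone 1.14, only MED12 remained of the 3 members over both clones, whereas 6 passed without control 3 of set A (22.2% of all genes tested) and 5 without sample 3 of clone 3.3 (18.4%).

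The other core genes did not pass in either clone or over both in the main fits. With the GC offset MED17 passed in clone 3.3 (-0.33, adjusted p = 0.029). In clone 1.14 MED4 (-0.41, adjusted p = 0.048), MED22 (0.24, adjusted p = 0.01) and MED27 (-0.19, adjusted p = 0.046) did. Over both clones MED17 (-0.22), MED4 (-0.27), MED22 (0.22) and MED16 (0.18) passed with it. The ranges that follow are those of the main fits. In clone 3.3 the log2 fold changes of the 7 head genes ran from -0.34 (MED6) to 0.13 (MED11), those of the 9 middle genes from -0.20 (MED19) to 0.35 (MED21), and those of the 9 tail genes from -0.24 (MED29) to 0.30 (MED16). In clone 1.14 the head ran from -0.26 (MED11) to 0.16 (MED22), the middle from -0.08 (MED26) to 0.15 (MED31), and the tail from -0.31 (MED15) to 0.17 (MED23). The median SE of a log2 fold change was 0.16 in clone 3.3 and 0.08 in clone 1.14, so that changes of the size of MED12 in clone 1.14 would not have been detectable in clone 3.3. The difference between the clones was tested directly as an interaction. None of the 33 genes passed, against 2.65% of all genes tested. The smallest adjusted p was 0.39, with 1 member at an unadjusted p under 0.05 and 0 called by DESeq2. MED12, for which clone 3.3 had the larger change, gave 0.31 ± 0.17 (SE, adjusted p = 0.57) as the effect in clone 1.14 minus that in clone 3.3.

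In ΔSCC4 cells 11 Mediator genes passed once samples were blocked by replicate number. The labels state no pairing, and the numbers were taken as pairs from these same data. Deviations from the group mean correlated over genes at 0.68, 0.12 and 0.62 between same-numbered ΔSCC4 samples and set A controls 1, 2 and 3. Control 2 correlated nearly equally with ΔSCC4 sample 3 (0.11), so the correlations do not single out the second pair. In both groups the difference of samples 1 and 3 followed GC content, as given above. With a block for the replicate number, 5 members rose and 6 fell (33.3% of 33), where 46.0% of all genes tested passed the same test, 22.3% higher and 23.7% lower. The fold changes were nearly the same with and without the block, and the SE fell. CDK19 gave 0.53 ± 0.29 (SE, adjusted p = 0.31) without and 0.54 ± 0.07 (SE, adjusted p = 0.0002) with the block on the log2 scale. Leaving out 1 sample, without the block, moved the value of CDK19 between 0.24 (without ΔSCC4 sample 3) and 0.81 (without control 3), and that of MED16 between 0.29 (without ΔSCC4 sample 1) and 0.65 (without control 1).

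The 5 that rose with the block were CDK19, MED12, MED16, MED29 and MED25. CDK19 measured 20.1, 32.7 and 43.8 CPM in controls 1, 2 and 3 and 32.6, 43.98 and 63.6 CPM in ΔSCC4 samples 1, 2 and 3, higher in each pair although the groups overlapped. MED12 measured 175, 128 and 152 CPM against 218, 197 and 168 CPM, higher in each pair, with a blocked log2 fold change of 0.34 ± 0.08 (SE, adjusted p = 0.0037). MED16, a tail subunit, measured 43.2, 32.00 and 33.7 CPM against 65.7, 41.4 and 48.2 CPM, with a blocked value of 0.49 ± 0.07 (SE, adjusted p = 0.00026). MED29, also of the tail, measured 62.8, 53.95 and 50.1 CPM against 77.1, 69.8 and 62.2 CPM, with a blocked value of 0.31 ± 0.06 (SE, adjusted p = 0.0016). MED25, a tail subunit bound by viral and cellular activators, measured 41.7, 35.3 and 36.1 CPM against 49.8, 41.9 and 44.5 CPM, with a blocked value of 0.26 ± 0.07 (SE, adjusted p = 0.0086). Each of these was higher in 3 of 3 pairs. This adds no support, since the blocked test by which they were picked favours genes that differ alike in those pairs. With both the GC offset and the block MED25 had a value of 0.05 and did not pass, while the other 4 passed, MED16 at 0.29.

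The 6 that fell with the block were MED14, MED6, MED4, MED30, MED20 and MED12L. The scaffold MED14 measured 219, 274 and 328 CPM in controls 1, 2 and 3 and 167, 197 and 237 CPM in the ΔSCC4 samples of the same numbers, with a blocked log2 fold change of -0.46 ± 0.05 (SE, adjusted p = 2.9e-05). MED6, one of the most conserved head subunits, measured 33.6, 40.5 and 37.9 CPM against 25.2, 23.3 and 33.7 CPM, with a blocked value of -0.45 ± 0.10 (SE, adjusted p = 0.0047). MED4 of the middle module measured 56.7, 71.2 and 67.1 CPM against 44.7, 57.4 and 54.3 CPM, with a blocked value of -0.33 ± 0.06 (SE, adjusted p = 0.0012). MED30 measured 14.7, 15.6 and 14.2 CPM against 12.2, 12.3 and 10.6 CPM, and all 3 edited samples were below all controls, with a blocked value of -0.35 ± 0.09 (SE, adjusted p = 0.011). MED20 of the head measured 63.4, 60.4 and 53.8 CPM against 54.3, 54.8 and 49.2 CPM, with a blocked value of -0.18 ± 0.06 (SE, adjusted p = 0.035). MED12L had a blocked value of -0.53 ± 0.12 (SE, adjusted p = 0.0041), and without the block its value lay between -0.78 (without ΔSCC4 sample 3) and -0.20 (without control 3) when 1 sample was left out. All 6 were lower in 3 of 3 pairs, which adds no support here either, since the blocked test favours such genes. Over the 33 members the log2 fold changes without the block rose with GC content (rho 0.51, and 0.29 over 12323 genes), and with both a GC offset and the block 10 members passed, of which 8 were among the 11. MED25, MED20 and MED30 no longer passed and MED23 and MED10 did. Without the block, leaving out control 1 gave 4 members (18.3% of all genes tested) and leaving out ΔSCC4 sample 3 gave 2 (10.7%).

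In ΔWAPL/ΔSCC4 cells the levels of the members lay close to the controls. The log2 fold changes against the set A controls ran from -0.31 (MED20) to 0.31 (MED10), and the smallest adjusted p was 0.20. MED20 measured 49.7, 44.9 and 49.3 CPM against 63.4, 60.4 and 53.8 CPM in the controls, 1 of 2 members, both lower, whose groups did not overlap. MED12 had a log2 fold change of -0.29 ± 0.14 (SE, adjusted p = 0.35) and CDK19 of -0.07 ± 0.25 (SE, adjusted p = 0.94). Leaving out control 3 gave 1 member past the threshold.

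Against clone 3.3, which shares the WAPL edit, 1 member passed in ΔWAPL/ΔSCC4 cells (3.03%, against 10.6% of all genes tested). MED21 measured 34.7, 39.9 and 37.05 CPM in ΔWAPL/ΔSCC4 cells, below all samples of clone 3.3 (47.5, 48.9 and 50.1 CPM) and within the range of the set A controls except for sample 1. Its log2 fold change was -0.39 ± 0.12 (SE, adjusted p = 0.042). The call was lost without sample 2 of clone 3.3 and without sample 1 or 3 of ΔWAPL/ΔSCC4 cells, and 2 members passed without sample 1 or 3 of clone 3.3 or sample 2 of ΔWAPL/ΔSCC4 cells. With the GC offset MED21 gave -0.21 and did not pass, while 4 others did (20.2% of all genes tested), MED15 (0.31) and MED12 (0.24) higher and CDK19 (-0.35) and MED20 (-0.28) lower. In the fit without it MED15 was higher than in clone 3.3 by 0.33 ± 0.13 (SE, adjusted p = 0.14), and CDK19 had a value of -0.36 ± 0.15 (SE, adjusted p = 0.17). The groups did not overlap for 7 members, 2 higher and 5 lower (21.2%, against 27.8% of all genes tested).

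Whether loss of SCC4 acted differently with and without WAPL was tested as an interaction in set A, coded as the SCC4 effect in ΔWAPL cells minus that in cells with WAPL. None of the 33 genes passed, against 11.3% of all genes tested. The smallest adjusted p was 0.11, with 5 members at an unadjusted p under 0.05 and 0 called by DESeq2. These 5 were MED6 at 0.83 ± 0.31 (SE, adjusted p = 0.11), CDK19 at -0.88 ± 0.37 (SE, adjusted p = 0.16), MED16 at -0.62 ± 0.27 (SE, adjusted p = 0.16), MED14 at 0.56 ± 0.23 (SE, adjusted p = 0.13) and MED21 at -0.45 ± 0.17 (SE, adjusted p = 0.12). They were named after their values were seen. With the GC offset 6 members passed (25.5% of all genes tested), MED6 at 0.85, MED14 at 0.49, MED15 at 0.37 and MED4 at 0.33, and CDK19 at -1.01 and MED16 at -0.52. Leaving out control 1 or 3, sample 1 of clone 3.3 or sample 3 of ΔSCC4 cells gave 1 member past the threshold in each case.

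The controls of the 2 sets gave the background for these values. None of the 33 genes passed between control B and control A, against 0.64% of all genes tested. The smallest adjusted p was 0.34, with 4 members at an unadjusted p under 0.05 and 0 called by DESeq2. The log2 fold changes between these unedited cells nevertheless ran from -0.36 (MED26) to 0.48 (MED1), a wider range than in ΔWAPL/ΔSCC4 cells. MED12 had a value of -0.11 ± 0.14 (SE, adjusted p = 0.75) and MED14 of 0.28 ± 0.14 (SE, adjusted p = 0.48). For 6 members the 2 control groups did not overlap (18.2%, against 19.4% of all genes tested).

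The genes that work with Mediator were counted from lists chosen for their function, and their counts are to be read against the 8.07% of all genes that passed in clone 3.3, 20.1% in clone 1.14, 17.7% over both clones, 9.49% in ΔSCC4 cells (46.0% with the block) and 7.95% in ΔWAPL/ΔSCC4 cells. Among the 12 RNA polymerase II subunits none passed in clone 3.3, over both clones, in ΔSCC4 cells without the block or in ΔWAPL/ΔSCC4 cells, and in clone 1.14 only POLR2H passed, falling by 0.32 on the log2 scale (adjusted p = 0.041). Of 31 general transcription factor genes 4 fell in clone 1.14 and 1 over both clones, GTF2E2 of the factor TFIIE, at -0.37 ± 0.07 (SE, adjusted p = 0.0017). Of 22 elongation and pause factors tested, ELL2 of the super elongation complex rose in each clone and over both, there at 0.62 ± 0.10 (SE, adjusted p = 0.00053). MLLT3 of the same complex rose in ΔSCC4 cells (0.97 ± 0.16 (SE, adjusted p = 0.0036)) and fell in ΔWAPL/ΔSCC4 cells (-0.67 ± 0.16 (SE, adjusted p = 0.03)). Of 12 enhancer coactivators 3 fell over both clones and 3 rose in clone 1.14, and the acetyltransferase EP300 fell in clone 3.3, at -0.68 ± 0.17 (SE, adjusted p = 0.019). Among 15 genes for cohesin, its loader and its regulators, the edited genes apart, 1 passed over both clones and 1 in ΔSCC4 cells. RAD21, a core cohesin subunit, rose over both clones, at 0.34 ± 0.10 (SE, adjusted p = 0.03), and STAG1, another cohesin subunit, rose in ΔSCC4 cells, at 0.69 ± 0.14 (SE, adjusted p = 0.011). With the replicate block, 1 polymerase subunit rose and 2 fell in ΔSCC4 cells, 1 general factor rose and 11 fell, 7 elongation factors rose and 3 fell, 1 coactivator rose and 3 fell, and 1 gene of the cohesin list rose and 7 fell, MAU2 among them.

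Genes driven by activators that signal through Mediator were counted from a pair of further lists. Of 12 target and regulator genes of SREBP, the sterol-responsive factor that binds MED15, 2 fell in clone 3.3, 10 in clone 1.14, 8 over both clones and 4 in ΔSCC4 cells (10 with the replicate block), and none rose in these. Their median log2 fold changes were -0.28, -0.35, -0.31 and -0.37, in that order, against medians of all genes between -0.01 and 0.01. The unedited controls also differed in these genes. INSIG1 was higher in control B than in control A by 0.63 (adjusted p = 0.055) and HMGCS1 by 0.53 (adjusted p = 0.14). There 11 of the 12 genes were higher in control B, at a median of 0.19, and 0 passed. None passed in ΔWAPL/ΔSCC4 cells, at a median of -0.09, and in the interaction 5 passed, all positive, at a median of 0.48. SCD, which makes monounsaturated fatty acids, fell in clone 3.3, clone 1.14 and ΔSCC4 cells, at -0.57 ± 0.12 (SE, adjusted p = 0.0075), -0.59 ± 0.05 (SE, adjusted p = 0.0003) and -0.81 ± 0.11 (SE, adjusted p = 0.00082), and had an interaction of 1.17 ± 0.12 (SE, adjusted p = 1.1e-05). Among 15 immediate early genes EGR2 rose in both ΔWAPL clones, by 2.09 and 1.84 on the log2 scale. In ΔWAPL/ΔSCC4 cells EGR2 had a value of 0.05 (adjusted p = 0.97), and its interaction was -2.06 (adjusted p = 0.0021). EGR1, EGR3 and JUN rose in ΔSCC4 and ΔWAPL/ΔSCC4 cells, EGR3 by 1.04 and 1.49. Levels were low, with group means of 0.770 to 4.43 CPM for EGR2 and 1.02 to 3.68 CPM for EGR3. Of the 14 genes other than EGR2, 5 fell in clone 1.14 (20.1% of all genes passed there) and the same 5 over both clones (17.7%). They were JUN, JUND, ATF3, IER2 and MYC. JUN measured -0.60 ± 0.12 (SE, adjusted p = 0.0021) over both clones on the log2 scale, 0.98 ± 0.17 (SE, adjusted p = 0.0042) in ΔSCC4 and 0.94 ± 0.15 (SE, adjusted p = 0.0026) in ΔWAPL/ΔSCC4 cells. In the same samples MED15 had log2 fold changes of -0.19 in clone 3.3, -0.31 in clone 1.14 and 0.08 in ΔSCC4 cells. Whether MED15 had a part in the changes of the SREBP genes was not tested.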

How the data were processed

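Polyadenylated RNA of 18 HAP1 samples in 6 groups was sequenced as strand-specific libraries. The authors aligned the reads to hg19 with TopHat2 (2.0.9 in the submitters' processing notes) and deposited whole-number counts of reads per gene, made with HTSeq and not normalised. The HTSeq version and its annotation are not given in the sources used here. Between 20.34% and 22.62% of the counts of a file fell in rows that name no gene, and these were left out. GENCODE 44 lifted to GRCh37 gave symbols for 96.6% of the 20329 identifiers.

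Counts were TMM-normalised, filtered with filterByExpr and tested in R 4.3.3 with the quasi-likelihood test of edgeR 4.0.16. Adjusted p-values are Benjamini-Hochberg over all genes tested in a comparison, with a threshold of 0.05, and only the groups compared entered each fit. Over both clones the set was a covariate, and samples, not clones, were the units. SE is the size of the log2 fold change divided by the root of the F statistic. CPM were normalised over all 18 samples, and per kilobase of the canonical transcript for RPKM. A chi-square test between samples of a group gave at least 1.61 per degree of freedom, so each was counted once. The fits were tested on simulated data.

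No label states a pairing of samples. The replicate numbers were taken to pair samples only between ΔSCC4 cells and set A controls, where every same-numbered correlation was above 0.1. That of the second pair was 0.12, and control 2 had 0.11 with ΔSCC4 sample 3. Alternatives were DESeq2 1.42.0, its size factors, other filters, one fit over all 18 samples, the replicate block, leaving out each sample and, added after seeing the data, an offset for GC content. The members, the partner lists and the tests were chosen with earlier results of these data known. All 33 members are described, with values per sample for those past the threshold in any comparison and for the paralogues of the kinase module, and up to 3 genes of each partner list with the largest change. TAF9 and ACACA of the partner lists and NEFL of the neuronal markers were not matched.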

Additional observations from a re-analysis of the deposited data

How the results depend on the processing

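The counts of Mediator genes past the threshold are small, and changed with the processing in the following cases. In clone 3.3 the count of 0 became 1 with DESeq2 and with no filter, and 2 with one fit over all 18 samples and with the GC offset. In clone 1.14 the count of 4 became 0 in one fit over all 18 samples, 7 with the GC offset and 11 with the GC offset and the replicate block. Over both clones the count of 3 became 1 with the replicate block, 9 with the GC offset and 6 with both. In ΔSCC4 cells the count of 0 became 5 in one fit over all 18 samples, 11 with the replicate block, 3 with the GC offset and 10 with both. Between ΔWAPL/ΔSCC4 cells and clone 3.3 the count of 1 became 0 with no filter and with at least 10 counts in every sample, 3 with the replicate block, 4 with the GC offset and 4 with both. In the interaction of WAPL and SCC4 the count of 0 became 6 with the GC offset and 5 with the GC offset and the replicate block. The share of all genes tested that passed moved as well. With the GC offset it was 12.9% in clone 3.3, 28.7% in clone 1.14 and 24.8% over both clones. It was 20.7% in ΔSCC4 cells, 20.2% between ΔWAPL/ΔSCC4 cells and clone 3.3 and 25.5% in the interaction. With the replicate block it was 46.0% in ΔSCC4 cells. For the other settings no such share is given, so those counts cannot be set against all genes. The cause of these changes was not tested.

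Leaving out 1 sample at a time gave 0 to 1 members in clone 3.3, 1 to 12 in clone 1.14, 1 to 6 over both clones, 0 to 4 in ΔSCC4 cells, 0 to 1 in ΔWAPL/ΔSCC4 cells, 0 to 2 between ΔWAPL/ΔSCC4 cells and clone 3.3 and 0 to 1 in the interaction. The share of all genes tested that passed moved in the same fits, over 5.44% to 9.35%, 11.1% to 37.9%, 14.3% to 22.2%, 5.25% to 18.3%, 4.62% to 12.2%, 6.79% to 14.2% and 8.60% to 13.5% in that order. The 0 members of the difference between the clones and of the comparison of the controls stayed 0 in all alternatives run.

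MED12 over both clones passed in 20 of 20 alternatives, with log2 fold changes from -0.41 to -0.30. CCNC over both clones had a log2 fold change of -0.0200 with the GC offset and -0.0161 with the GC offset and the block, and MED21 had -0.0243 and -0.0209, on the other side of 0 from their main values. Of the 19 values followed through the alternatives, those of members that passed in a comparison, no other changed sign. For no comparison do the labels say that equal replicate numbers mark pairs. The same-numbered correlations were -0.51, -0.00 and -0.49 between set A controls and clone 3.3, and 0.05, 0.32 and 0.20 between set B controls and clone 1.14. In set B each was higher than the correlations of the same control with the other samples of clone 1.14. For control 3 these reached 0.16, with sample 1. The block then gave 0 members in clone 3.3, 6 in clone 1.14 and 0 in ΔWAPL/ΔSCC4 cells against controls. The share of all genes that passed with the block is not given for these comparisons.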
